A study of Mus musculus with 6 samples.

Results

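Bile acid synthesis and conjugation in mouse liver was followed through 10 enzyme genes, Cyp7a1, Cyp8b1, Cyp27a1, Cyp7b1, Hsd3b7, Akr1d1, Amacr, Acox2, Slc27a5 and Baat. They were found by gene name among the 26123 genes of the deposited table, and all 10 were among the 16492 genes that passed the filter on low counts. Liver RNA came from ICR mice, an outbred stock, with 3 animals labelled control and 3 labelled crizotinib, a drug that blocks the receptor kinases ALK, ROS1 and MET. The series is titled as a liver injury model; its design text gives 7 days of adaptation, a dose of 300 mg/kg, normal saline for comparison and collection 1 week after dosing, but leaves unclear which animals were dosed, and the treatment labels of the samples were used as the groups. The sources used here give no sex, age, fasting state or hour of collection; Y-linked Ddx3y was counted at 31.0 to 55.6 CPM in all 6 libraries. Xist, the RNA of the inactive X chromosome, had 0.199, 3.79 and 5.57 CPM in control replicates 1, 2 and 3. It had 14.3, 14.4 and 6.93 CPM in crizotinib replicates 1, 2 and 3. The groups did not overlap, next to 10.7% of all tested genes in that direction.

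Hepatocytes turn cholesterol into bile acids by a pair of routes. The classic route begins with 7-alpha-hydroxylation of cholesterol by Cyp7a1, the rate-limiting step, and passes through Cyp8b1 when cholic acid is the product. The alternative, or acidic, route begins with side-chain oxidation by Cyp27a1 and continues with Cyp7b1. Hsd3b7 and Akr1d1 then remodel the sterol ring, Amacr and Acox2 act in the peroxisome as the side chain is shortened, Slc27a5 loads bile acids onto coenzyme A, and Baat joins them to taurine, the main partner in mice, or glycine. Bile acids repress the first steps through the receptor FXR and its target SHP, and inflammatory cytokines are also known to lower Cyp7a1.

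The 6 libraries held 51123361 to 67947970 counts. Levels below are CPM, counts per 1000000 after TMM scaling of the libraries, and each P value adjusted over all genes is from edgeR's quasi-likelihood test unless another tool is named. Hepatocyte transcripts were abundant in every library, and albumin (Alb) stood at 44767 to 55633 CPM in controls and 14072 to 23149 CPM in crizotinib livers. The 9 hepatocyte markers of a list summed to 65651 to 90641 CPM in controls and 33894 to 47076 CPM in crizotinib livers. None passed the adjusted threshold of 0.05. At an unadjusted p under 0.05, 1 was higher and 1 lower, next to 8.06% and 7.25% of all genes. Alb made up most of controls' sums. Of the 9 markers 6 were fitted below 0 and 3 higher than 0, and the middle one stood at -0.87 (log2). The groups did not overlap for 2 lower markers, Alb and Apoa1, and 1 higher, Tat, next to 10.3% and 10.7% of all genes. Tat, tyrosine aminotransferase, had 492 to 528 CPM in controls. It had 8708, 5718 and 904 CPM in crizotinib replicates 1, 2 and 3. Cps1 and Ass1 of the urea cycle were highest in crizotinib replicate 3 at 1959 and 1682 CPM. In crizotinib replicate 2 they had 858 and 632 CPM, and for Ass1 this was the lowest of the 6 libraries. In whole liver, for any gene, fewer cells of a type and less RNA per cell cannot be told apart. Markers of Kupffer cells, the liver macrophages, summed to 390 to 506 CPM in controls and 40.9 to 72.6 CPM in crizotinib livers. Of these 12 markers 7 were called lower, next to 41 of 16492 tested genes, and none was at 0 in every library. Marco, the 1 marker fitted above 0, had 2.66, 10.2 and 9.72 CPM in control replicates 1, 2 and 3. It had 16.5, 4.525 and 3.09 CPM in crizotinib replicates 1, 2 and 3. Of 6 cholangiocyte markers 5 were tested and none passed, with 1 higher at an unadjusted p under 0.05, next to 8.06% of all genes. Krt19 and Krt7 were at 1.04 CPM or less in every library. Sox9 had 1.42, 1.57 and 1.65 CPM in control replicates 1, 2 and 3. Its crizotinib replicates 1, 2 and 3 had 9.65, 29.9 and 2.35 CPM. The groups did not overlap for Sox9, next to 10.7% of all tested genes in that direction. The list summed to 55.0 to 103 and 94.999 to 181 CPM, most of it Spp1 (50.5 to 153 CPM over the 6 libraries), and the part of these markers in the members' values was not tested. Crizotinib replicate 3 stood apart from crizotinib replicates 1 and 2: 16 acute-phase genes, secreted by the liver in inflammation, summed to 269810 and 274060 CPM in replicates 1 and 2, to 36177 CPM in replicate 3, and to 16342, 36874 and 21490 CPM in control replicates 1, 2 and 3. Control replicate 1 had 44.5% of its counts on mitochondrially encoded genes, against 5.53% to 17.6% in the others. Some results are therefore also given without crizotinib replicate 3 or without both libraries. Without control replicate 1 alone, edgeR called 0 of 10 members and 0 of 17072 genes at the adjusted threshold.

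Across the pathway, Cyp7b1 and Cyp8b1 had the lowest fitted log2 fold changes relative to control, -3.32 and -2.08. Cyp7a1 came next at -0.55, close to Akr1d1 and Amacr at -0.47 each, and Slc27a5 and Baat had values near 0. No member passed the test over all 6 libraries (0 of 10; 56 of 16492 genes, 0.34%, passed). At an unadjusted p under 0.05 there were 2 members, Cyp8b1 and Cyp7b1, both lower, next to 15.3% of all genes (7.25% lower and 8.06% higher). DESeq2 called the same 2 as lower, next to 6.7% of all genes. Without crizotinib replicate 3 edgeR called 2 members lower, Cyp7a1 and Cyp8b1, next to 8.83% of all genes, and without both control replicate 1 and crizotinib replicate 3 it called 3, Cyp7a1, Cyp8b1 and Cyp7b1, next to 10.3%. The median log2 fold change of the 10 members was -0.33, and 3 were fitted above 0 and 7 below; over all tested genes the median was 0.00 (-2.66e-05), with 8246 genes above and 8246 below. Crizotinib replicates 1 and 2 lay below every control for 5 of 10 members (Cyp7a1, Cyp8b1, Cyp7b1, Hsd3b7 and Akr1d1), next to 25.1% of all tested genes. Crizotinib replicate 3 was the highest of all 6 libraries for 3 of 10 members (Cyp7a1, Hsd3b7 and Akr1d1), next to 14.3% of all tested genes. Both patterns were chosen after the values were seen, and neither was tested.

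**Figure D1:**
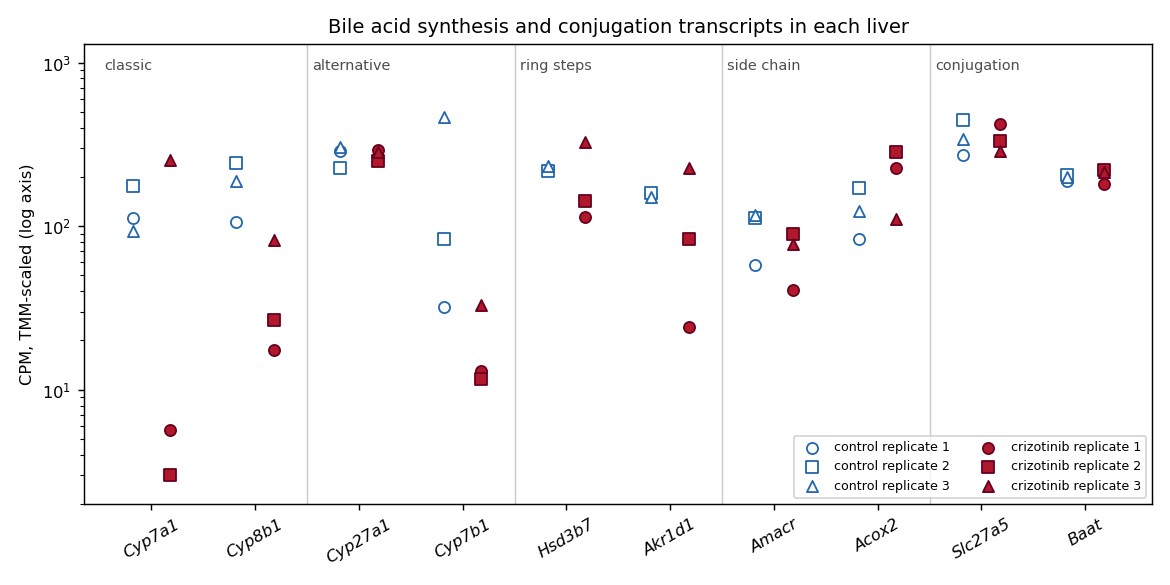
TMM-scaled CPM on a log axis for the 10 genes, grouped by step of the pathway; each symbol is 1 liver, open for control and filled for crizotinib, with circle, square and triangle for replicates 1, 2 and 3. Cyp7a1 stands at 5.69 and 3.02 CPM in crizotinib replicates 1 and 2 and at 253 CPM in crizotinib replicate 3, while Cyp27a1 and Baat lie close together in all 6 livers.

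In the classic route, Cyp7a1 (ENSMUSG00000028240, chromosome 4, 6265612 to 6275633) had 112, 177 and 93.1 CPM in control replicates 1, 2 and 3, and 5.69, 3.02 and 253 CPM in crizotinib replicates 1, 2 and 3. A pair of crizotinib livers thus lay far below every control and the remaining one above every control. The counts behind these values were 295 and 162 reads in crizotinib replicates 1 and 2, and 15975 in crizotinib replicate 3, which was 44.5 and 84.0 times as high in CPM. The group means were 127 ± 44.2 CPM in controls and 87.4 ± 144 CPM in crizotinib livers (SD, n = 3 each), and the fitted log2 fold change was -0.55 ± 1.36 (SE; 95% interval -3.69 to 2.60; edgeR adjusted p = 0.872). DESeq2 returned neither an unadjusted nor an adjusted p for this gene, so it made no call on it. Without crizotinib replicate 3 the transcript fell by 4.89 ± 0.50 on the log2 scale, or 29.6-fold (edgeR adjusted p = 0.00445); without crizotinib replicate 1 or crizotinib replicate 2 the fitted value was 0.01 or 0.04.

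Cyp8b1 (ENSMUSG00000050445, chromosome 9, 121914356 to 121916305), the sterol 12-alpha-hydroxylase whose activity sets how much cholic acid is made, had 107, 242 and 189 CPM in control replicates 1, 2 and 3. Crizotinib livers stood at 17.6, 26.7 and 82.8 CPM in replicates 1, 2 and 3. This was the only member whose groups did not overlap, next to 21% of all tested genes (10.3% lower); the lowest control was 1.29 times the highest crizotinib liver. Its fitted log2 fold change was -2.08 ± 0.62 (SE; 95% interval -3.52 to -0.64), or 4.23-fold lower, with an edgeR adjusted p = 0.190 and an unadjusted p = 0.0103. DESeq2 gave -2.09 with an adjusted p = 0.0115. Without crizotinib replicate 3 it fell by 3.03 ± 0.46, or 8.15-fold (edgeR adjusted p = 0.0133). The order of the crizotinib livers for both genes of the classic route put replicate 3 on top. Among crizotinib livers the acute-phase sum given above was lowest in replicate 3, at 36177 CPM. Control replicates 1 and 3 had lower sums, 16342 and 21490 CPM. Among controls, replicate 2 was highest for both genes and also for the acute-phase sum, at 36874 CPM. The part of the acute-phase genes in these values was not tested.

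Promoter sequences were available for 5 of the 10 members in the RefSeq table of assembly GRCm38.p6. Those of Cyp8b1, whose groups did not overlap, Akr1d1, which spread widely in crizotinib livers, and Cyp27a1, which lay inside the control range, are shown as the 250 bases before the transcription start, 5′ to 3′ on the gene's strand. Capitals mark matches to 3 motifs chosen after the sequences had been seen, searched on both strands.
Cyp8b1, chr9:121916306-121916555, minus strand: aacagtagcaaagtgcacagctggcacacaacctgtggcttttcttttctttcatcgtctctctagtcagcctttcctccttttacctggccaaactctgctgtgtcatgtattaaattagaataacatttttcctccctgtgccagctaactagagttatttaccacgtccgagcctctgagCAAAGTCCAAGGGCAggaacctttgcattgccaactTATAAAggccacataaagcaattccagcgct
Akr1d1, chr6:37529923-37530172, plus strand: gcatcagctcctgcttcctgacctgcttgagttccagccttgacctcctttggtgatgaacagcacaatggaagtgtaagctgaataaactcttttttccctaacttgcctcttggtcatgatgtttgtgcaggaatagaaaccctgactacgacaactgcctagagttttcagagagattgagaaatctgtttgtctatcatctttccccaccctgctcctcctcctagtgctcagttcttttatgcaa
Cyp27a1, chr1:74713285-74713534, plus strand: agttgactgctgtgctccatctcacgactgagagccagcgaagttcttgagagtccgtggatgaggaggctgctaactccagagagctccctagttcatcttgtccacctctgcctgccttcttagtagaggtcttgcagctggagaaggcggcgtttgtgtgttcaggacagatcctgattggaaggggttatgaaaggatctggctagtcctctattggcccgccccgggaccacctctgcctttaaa
The Cyp8b1 window holds CAAAGTCCA, a match to the HNF4-type letters CAAAGNCCA, at 67 to 59 bases before the start. It overlaps CAAGGGCA, a match to the LRH-1-type letters CAAGGNCA, at 60 to 53 bases before the start. A TATA box (TATAAA) lies at 31 to 26 bases before the start. Among 32851 promoter windows of 250 bases, 1.7% hold the first motif, 5.53% the second and 12.4% the third. None of the 3 motifs was found in the windows of Akr1d1, Cyp27a1, Hsd3b7 or Acox2. These matches describe the letters of the reference only.

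In the alternative route, Cyp27a1 (ENSMUSG00000026170, chromosome 1, 74713574 to 74737892), the mitochondrial sterol 27-hydroxylase, had 288, 227 and 304 CPM in control replicates 1, 2 and 3. Crizotinib replicates 1, 2 and 3 had 294, 252 and 284 CPM, inside the control range in every case. The log2 fold change was 0.02 ± 0.32 (SE; 95% interval -0.72 to 0.76; edgeR adjusted p = 0.985). Macrophages also express this gene, and the sum of the Kupffer markers given above was lower in the crizotinib livers. The part of these markers in the Cyp27a1 level was not tested.

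Cyp7b1 (ENSMUSG00000039519, chromosome 3, 18071950 to 18243338), the oxysterol 7-alpha-hydroxylase, had 32.2, 83.1 and 462 CPM in control replicates 1, 2 and 3. Crizotinib replicates 1, 2 and 3 had 13.0, 11.7 and 33.2 CPM. The controls spanned a 14.4-fold range, and crizotinib replicate 3 lay just above control replicate 1, so the groups overlapped. Cyp7b1 had a log2 fold change of -3.32 ± 0.98 (SE; 95% interval -5.57 to -1.06), or 9.97-fold lower, the lowest fitted value among the 10 members, with an edgeR adjusted p = 0.186 and an unadjusted p = 0.0095. DESeq2 gave an adjusted p = 0.00178. Without control replicate 3, the highest liver, the fitted value was -1.58 (edgeR adjusted p = 0.475), a 2.99-fold difference in place of 9.97-fold, and without crizotinib replicate 3 it was -3.97, or 15.7-fold lower (edgeR adjusted p = 0.0753).

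Cyp7b1 is a male-biased gene in mouse liver. A list of 10 other male-biased liver genes summed to 2782, 3378 and 7659 CPM in control replicates 1, 2 and 3 and to 576, 755 and 870 CPM in crizotinib replicates 1, 2 and 3. Of these genes 4 were called lower, all 10 were fitted below 0, and none was at 0. Over all 16492 tested genes 41 were called lower and 8246 were fitted below 0. Control replicate 3 was highest and control replicate 1 lowest among controls for both the list and Cyp7b1. Among crizotinib livers replicate 3 was highest for both, but the list was lowest in replicate 1 and Cyp7b1 in replicate 2. The part of the male-biased genes, and of the Xist levels given above, in the Cyp7b1 values was not tested.

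**Figure D2:**
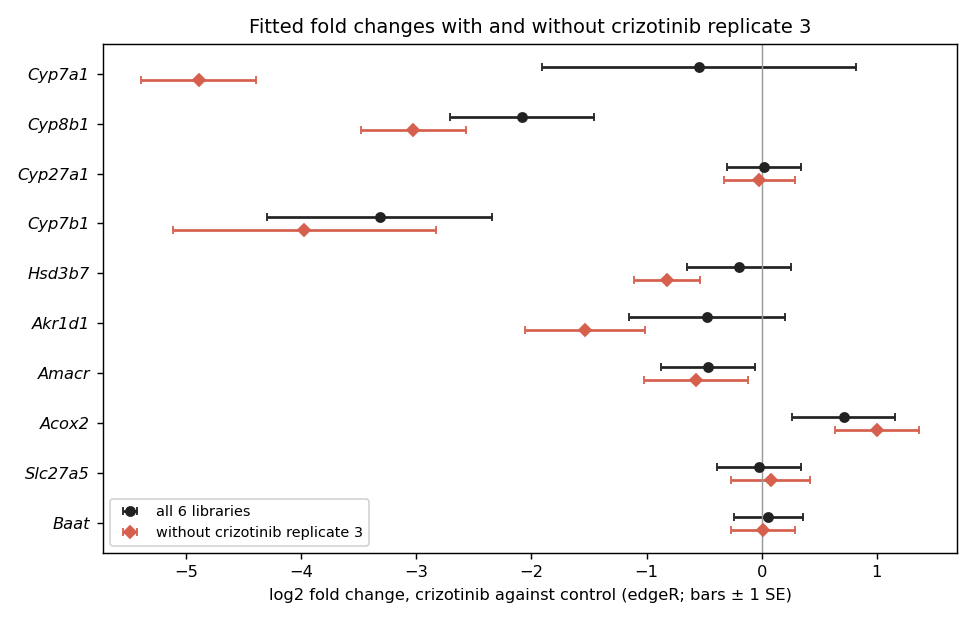
Log2 fold change of each gene, crizotinib against control, from edgeR on all 6 libraries (black circles) and without crizotinib replicate 3 (red diamonds); bars are ± 1 SE. Cyp7a1 moves from -0.55 to -4.89 and Akr1d1 from -0.47 to -1.54 when that library is left out, while Slc27a5, Baat and Cyp27a1 stay near 0.

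The ring-modifying enzymes were tightly held in controls and scattered in crizotinib livers. Hsd3b7 (ENSMUSG00000042289, chromosome 7, 127800604 to 127803802), the 3-beta-hydroxy-C27-steroid dehydrogenase, had 221, 217 and 233 CPM in control replicates 1, 2 and 3 and 114, 142 and 329 CPM in crizotinib replicates 1, 2 and 3. A pair of crizotinib livers lay below the controls and the remaining one above. For Hsd3b7 the log2 fold change was -0.20 ± 0.45 (SE; 95% interval -1.23 to 0.84; edgeR adjusted p = 0.861). Hsd3b7 overlaps the protein-coding gene Gm49388 on its own strand and 9430064I24Rik on the opposite strand, so its counts are uncertain. Akr1d1 (ENSMUSG00000038641, chromosome 6, 37530173 to 37568815), the delta-4-3-oxosteroid 5-beta-reductase that gives bile acids their bent ring, had 156, 159 and 150 CPM in control replicates 1, 2 and 3. Crizotinib replicates 1, 2 and 3 had 24.2, 83.5 and 227 CPM, a 9.39-fold range against 1.06-fold in controls, with the same order of livers as Hsd3b7. For Akr1d1 the log2 fold change was -0.47 ± 0.68 (SE; 95% interval -2.04 to 1.09; edgeR adjusted p = 0.773). Without crizotinib replicate 3 the values of Hsd3b7 and Akr1d1 were -0.82 and -1.54 (edgeR adjusted p = 0.120 and 0.111). The processed pseudogene Gm7463 lies within Akr1d1 on the same strand.

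For the peroxisomal side-chain steps, Amacr (ENSMUSG00000022244, chromosome 15, 10981756 to 10996626), the racemase that turns the side chain into the form used for oxidation, had 58.2, 113 and 116 CPM in control replicates 1, 2 and 3. Crizotinib replicates 1, 2 and 3 had 40.5, 89.2 and 78.3 CPM, and the groups overlapped because of control replicate 1 (log2 fold change -0.47 ± 0.41 SE, edgeR adjusted p = 0.620). Acox2 (ENSMUSG00000021751, chromosome 14, 8225511 to 8259353), the branched-chain acyl-CoA oxidase that acts next, had 83.8, 171 and 124 CPM in control replicates 1, 2 and 3. Its crizotinib livers stood at 225, 284 and 111 CPM in replicates 1, 2 and 3, so replicates 1 and 2 were above every control and replicate 3 was among them. The log2 fold change of Acox2 was 0.71 ± 0.45 (SE; 95% interval -0.32 to 1.74; edgeR adjusted p = 0.486), and 1.001 without crizotinib replicate 3 (edgeR adjusted p = 0.128).

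The conjugating enzymes had nearly equal levels in both groups. Slc27a5 (ENSMUSG00000030382, chromosome 7, 12988346 to 12998192), the bile acyl-CoA synthetase, had 271, 445 and 340 CPM in control replicates 1, 2 and 3 and 422, 330 and 287 CPM in crizotinib replicates 1, 2 and 3. All 3 crizotinib livers lay inside the control range, at a log2 fold change of -0.02 ± 0.37 (SE; 95% interval -0.87 to 0.82; edgeR adjusted p = 0.982). Baat (ENSMUSG00000039653, chromosome 4, 49489422 to 49506557), the amino acid N-acyltransferase, had 188, 206 and 199 CPM in control replicates 1, 2 and 3 and 180, 222 and 214 CPM in crizotinib replicates 1, 2 and 3. The log2 fold change of Baat was 0.06 ± 0.30 (SE; 95% interval -0.63 to 0.75; edgeR adjusted p = 0.938). Among the 10 members the highest crizotinib liver was from 1.17 times the lowest, for Cyp27a1, to 84.0 times, for Cyp7a1. For Baat it was 1.23 times the lowest.

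Between genes, levels were set side by side on the FPKM scale, which the authors scaled by gene length. Slc27a5 and Cyp27a1 were the highest by mean rank, with 66.4 to 208 and 79.4 to 143 FPKM over the 6 livers, followed by Baat with 57.8 to 121 FPKM. These ranges overlap, so their order is not firm. Cyp7a1 was last in 3 libraries, with 0.641 to 66.7 FPKM, and Cyp7b1 last in the other 3, although it was first in control replicate 3 at 191 FPKM. As a share of the summed FPKM of the 10 genes, the classic pair Cyp7a1 and Cyp8b1 made up 13.2%, 20.3% and 12.8% in control replicates 1, 2 and 3 and 1.91%, 2.50% and 14.0% in crizotinib replicates 1, 2 and 3. The pair Cyp27a1 and Cyp7b1 of the alternative route made up 24.0%, 17.4% and 38.1% in controls and 26.0%, 21.0% and 19.9% in crizotinib livers. Slc27a5 and Baat made up 33.8%, 35.1% and 26.1% in controls and 48.9%, 43.3% and 31.1% in crizotinib livers. Hsd3b7 and Akr1d1 made up 21.7%, 16.2% and 14.6% in controls and 9.10%, 13.9% and 26.9% in crizotinib livers, and Amacr and Acox2 made up 7.30%, 10.9% and 8.40% in controls and 14.1%, 19.2% and 8.18% in crizotinib livers. Crizotinib replicate 3 was above every control on the share of Hsd3b7 and Akr1d1 and within the control range on the other 4 shares.

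**Figure D3:**
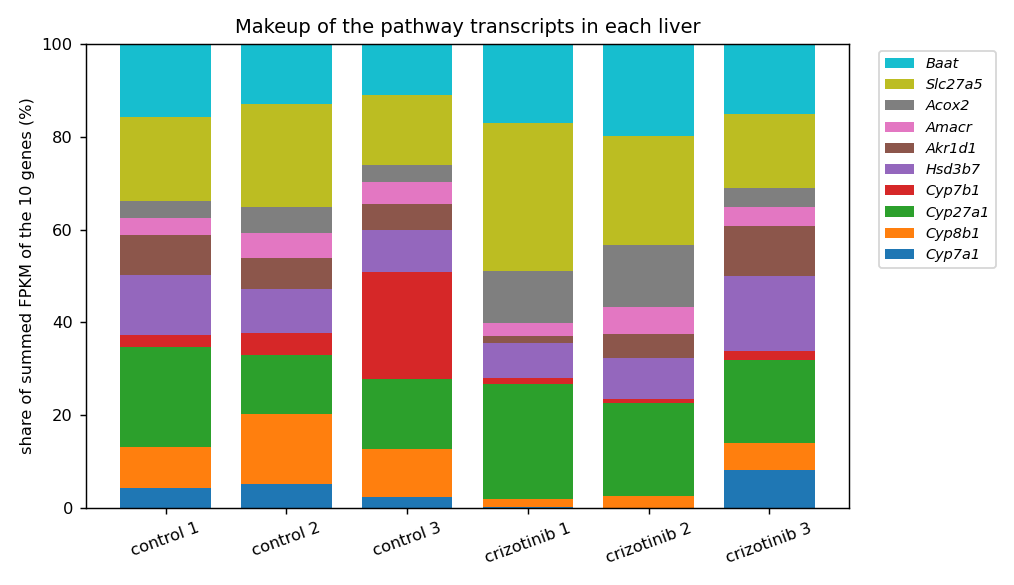
Share of the summed FPKM of the 10 genes, in percent, taken by each gene in each liver; each bar is 1 library. The lowest segments, Cyp7a1 and Cyp8b1 together, are 1.91% and 2.50% in crizotinib replicates 1 and 2 and 12.8% to 20.3% in controls and crizotinib replicate 3.

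Spread within a group also differed between the steps. The coefficient of variation of CPM over 3 controls was 2.95% for Akr1d1, 3.77% for Hsd3b7 and 4.60% for Baat, values that only 1.01%, 1.58% and 2.24% of the 16492 tested genes matched or fell under. In crizotinib livers the same measure was 93.5% for Akr1d1 and 59.9% for Hsd3b7 but 10.8% for Baat. Cyp7a1 went from 34.6% in controls to 165% in crizotinib livers, where 99.1% of tested genes were at or under it. Cyp7b1 had the reverse order, with 122% in controls and 62.3% in crizotinib livers. The crizotinib value was the larger for 7 of the 10 members, next to 53.5% of all tested genes; no test was made of these spreads.

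Other genes of the pathway were read from a list of 9, of which 8 were tested and none passed edgeR's test over all 6 libraries. At an unadjusted p under 0.05 there were 3, next to 15.3% of all genes. DESeq2 called 2 of the 8 tested genes, next to 6.7% of all genes. Cyp39a1, an oxysterol 7-alpha-hydroxylase acting on 24-hydroxycholesterol, had 2.50, 13.4 and 3.92 CPM in control replicates 1, 2 and 3 and 80.6, 88.0 and 11.0 CPM in crizotinib replicates 1, 2 and 3. Cyp39a1 was thus highest in crizotinib replicates 1 and 2, the livers where Cyp7a1 was lowest. Among controls, replicate 2 was highest for both genes. The log2 fold change of Cyp39a1 was 3.18 ± 0.89 (SE; edgeR adjusted p = 0.170; DESeq2 adjusted p = 0.00176), and without crizotinib replicate 3 it rose by 3.66 (edgeR adjusted p = 0.0226). Without control replicate 2 the value was 4.19, or 18.3-fold in place of 9.04-fold (edgeR adjusted p = 0.176), and without control replicate 1 it was 2.77. Scp2, whose long form is the peroxisomal thiolase of side-chain shortening, had 2234, 2249 and 3793 CPM in control replicates 1, 2 and 3 and 480, 1414 and 1372 CPM in crizotinib replicates 1, 2 and 3. Scp2 was the only gene of this list whose groups did not overlap, next to 10.3% of all tested genes in that direction. Its fitted difference on the log2 scale was -1.34 ± 0.57 (± SE, edgeR adjusted p = 0.319). Cyp46a1, the cholesterol 24-hydroxylase known from brain, had 2.72 to 22.5 CPM in controls and 1.28 to 3.36 CPM in crizotinib livers (edgeR adjusted p = 0.215; DESeq2 adjusted p = 0.0227). Its log2 fold change of -2.34 was -1.19 without control replicate 1, the highest liver (edgeR adjusted p = 0.491). Slc27a2, a peroxisomal acyl-CoA synthetase, was at -0.996 ± 0.46 on the log2 scale (± SE; edgeR adjusted p = 0.351). Cyp2c70, which makes muricholic acids in mice, was at -0.48, Hsd17b4, the bifunctional enzyme, at -0.12, Acot8, a thioesterase, at -0.31 and Abcd3, a peroxisomal importer, at -0.10 on the log2 scale. Ch25h, the cholesterol 25-hydroxylase, had 0.122 CPM or less in every library and was not tested.

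Taurine supply was read from a list of 4 genes, all tested, and none passed edgeR's test. At an unadjusted p under 0.05, 2 were higher, next to 8.06% of all genes. DESeq2 called those 2 higher, next to 6.7% of all genes called in either direction. Csad, cysteine sulfinate decarboxylase, had 12.7, 22.9 and 79.2 CPM in control replicates 1, 2 and 3 and 129, 311 and 127 CPM in crizotinib replicates 1, 2 and 3. Cdo1, cysteine dioxygenase, had 797, 1066 and 752 CPM in control replicates 1, 2 and 3 and 2228, 2033 and 1520 CPM in crizotinib replicates 1, 2 and 3. Every crizotinib liver was above every control for both enzymes, including crizotinib replicate 3 (next to 10.7% of all genes with groups that did not overlap in that direction). The log2 fold changes were 2.31 ± 0.72 for Csad and 1.14 ± 0.43 for Cdo1 (SE; edgeR adjusted p = 0.204 and 0.266; DESeq2 adjusted p = 0.0138 and 0.0110). Csad moved most with 1 library, from 4.94-fold higher to 10.5-fold without control replicate 3 (log2 3.40; edgeR adjusted p = 0.274). Csad overlaps Zfp740 on the opposite strand, and the strand setting of the counting is unknown here, so its counts are uncertain. Ado, cysteamine dioxygenase, and Slc6a6, the taurine transporter, were at 0.48 and -0.43 on the log2 scale, and Slc6a6 was called lower, at -1.16, without control replicate 1 and crizotinib replicate 3 (edgeR adjusted p = 0.0443).

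Of 7 regulators of bile acid synthesis, all tested, none passed edgeR's test or DESeq2. At an unadjusted p under 0.05, 1 was higher, next to 8.06% of all genes. Nr0b2, which encodes the repressor SHP, had 52.8, 25.0 and 52.0 CPM in control replicates 1, 2 and 3 and 9.92, 10 and 34.4 CPM in crizotinib replicates 1, 2 and 3. Like the classic route enzymes, Nr0b2 was low in crizotinib replicates 1 and 2, at a log2 fold change of -1.26 ± 0.55 over all libraries (SE; edgeR adjusted p = 0.333); without crizotinib replicate 3 it fell by 2.14 (edgeR adjusted p = 0.0239). Nr5a2, which encodes LRH-1, an activator of the hydroxylase genes, had 17.6, 33.2 and 25.5 CPM in control replicates 1, 2 and 3. Its values were 63.4, 56.8 and 35.1 CPM in crizotinib replicates 1, 2 and 3. The groups did not overlap, next to 10.7% of all genes in that direction (log2 fold change 1.02 ± 0.34 SE, edgeR adjusted p = 0.223). Hnf4a, a nuclear receptor of hepatocytes, was at 0.91 ± 0.44 (SE; edgeR adjusted p = 0.369), with 222 to 337 CPM in controls and 279 to 671 CPM in crizotinib livers. The transcripts of Nr1h4, which encodes FXR, Fgfr4 and Klb, the FGF15 receptor pair, and Mafg, a repressor, were at -0.22, 0.20, 0.02 and -0.28 on the log2 scale.

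**Figure D4:**
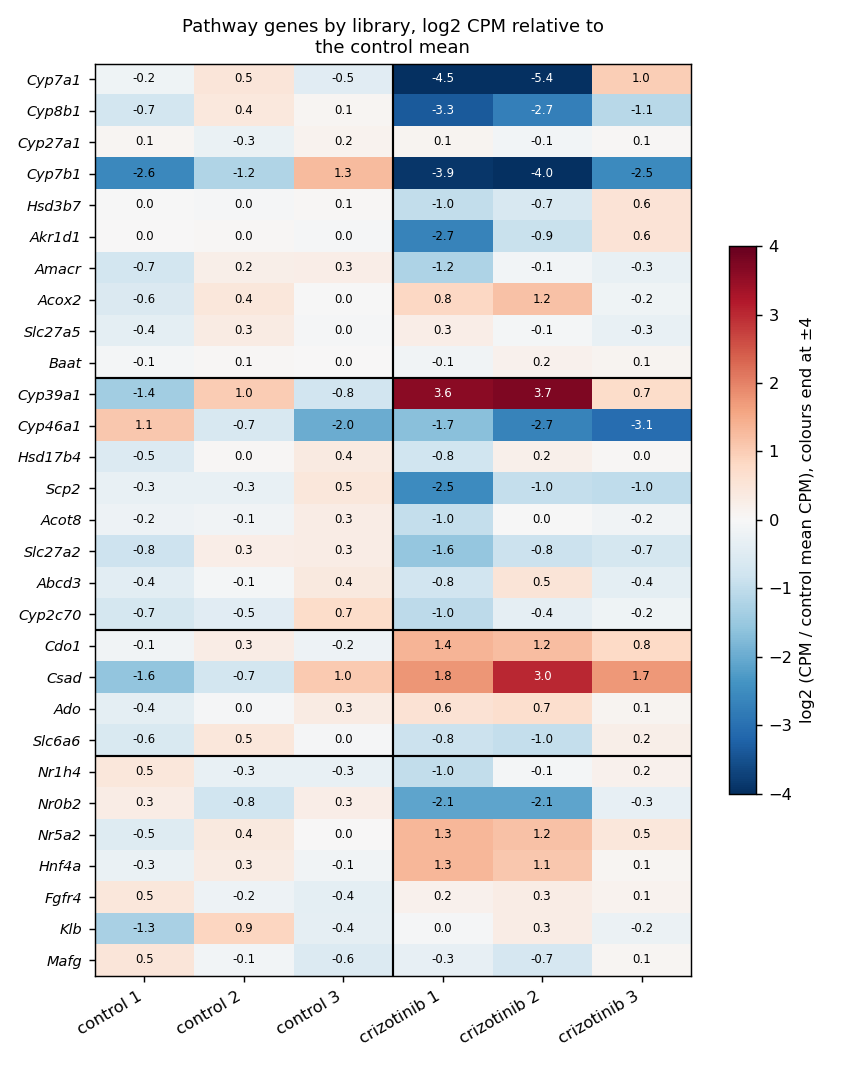
Log2 of CPM relative to the control mean for the 10 enzymes and, below the horizontal lines, the other synthesis genes, taurine supply genes and regulators that were tested; each column is 1 library, and colours end at ± 4. Crizotinib replicates 1 and 2 share dark blue cells for Cyp7a1 (-4.48 and -5.40) and Cyp7b1 (-3.88 and -4.04) and red cells for Cyp39a1 and Csad. Crizotinib replicate 3 is at 0.99 for Cyp7a1, -2.54 for Cyp7b1, 0.73 for Cyp39a1 and 1.73 for Csad.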

How the data were processed

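Liver mRNA of 3 control and 3 crizotinib mice was sequenced; per the labels' protocols, 1.3 ug of total RNA entered a SMARTer mRNA library kit. The authors deposited whole-number, unnormalized read counts for each gene, and the FPKM values deposited by the authors were fragments per kilobase per 1000000. Where all 6 libraries exceeded 200 counts (8285 genes), FPKM equalled the counts times 1 factor per gene and library to within 0.0266 (log2); for the 10 members the implied length was 1.085 to 1.112 times the union of GENCODE M21 exons. The aligner, the counter and its strandedness: not given in the sources used here. Of 26060 matched identifiers 89.65% had the start and end of GENCODE M21, so positions are on GRCm38.

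Each library was 1 replicate, grouped by its treatment label; p-values measure the spread between these animals. Genes passing filterByExpr (minimum count 10, minimum total 15) were tested two-sided with edgeR 4.0.16 (R 4.3.3; trimmed mean of M values, quasi-likelihood, Benjamini-Hochberg over 16492 genes, threshold 0.05). Standard errors are the absolute log2 fold change over the square root of F. Alternatives were DESeq2 1.42.0, its size factors in edgeR, no filter, a replicate block, limma 3.58.1 on log2(FPKM + 1), removal of mitochondrially encoded genes, and each library left out; leaving out control replicate 1 with crizotinib replicate 3 was added later, with the data in view. Simulated counts were used to test the steps. Titles number the animals 1 to 3 in both groups, but deviations of same-numbered libraries correlated at -0.149, 0.164 and -0.0902, so the numbers were not taken as pairs. For depth, an exact permutation test (two-sided) gave p = 0.3, where 0.1 is the smallest possible. All 10 members and every gene of the lists of other synthesis, taurine supply and regulator genes could be named, with Alb as the tissue check; members and lists were chosen with earlier results of these data known.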

Additional observations from a re-analysis of the deposited data

How the results depend on the processing

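Of 130 refitted values of the 10 members, 109 kept direction and side of the threshold, 7 passed the threshold and 14 changed sign. The 109 include Cyp7a1 by DESeq2, which kept direction but had no p to set against the threshold. Of 247 for the other lists these counts were 223, 9 and 15. The count of called genes, 56, was 1105 by DESeq2, 0 with a replicate block (2068 genes at an unadjusted p under 0.05), 0 to 1504 with 1 library left out (1504 without crizotinib replicate 3) and 1718 without control replicate 1 and crizotinib replicate 3. Called members, 0 in the reported fit, were 2 by DESeq2, 0 to 2 with 1 library left out and 3 without both libraries; with the replicate block they were 0. The other synthesis genes called were 2 by DESeq2, 0 to 1 with 1 library left out and 1 without both; taurine supply genes were 2 by DESeq2 and 1 without both; regulators were 0 to 1 with 1 library left out and 1 without both. The block lost all calls over all genes and changed no member's call; the largest shift was Cyp7a1, at -3.50. Causes of these differences were not tested.

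The log2 fold changes that changed sign under an alternative were these. With 1 library left out the ranges were -4.89 to 0.0354 for Cyp7a1, -0.13 to 0.10 for Cyp27a1, -0.82 to 0.0773 for Hsd3b7, -1.54 to 0.00 (0.0049) for Akr1d1, -0.19 to 0.15 for Slc27a5, -0.0015 to 0.15 for Baat, -0.34 to 0.12 for Hsd17b4, -0.56 to 0.14 for Abcd3, -0.74 to 0.0890 for Cyp2c70, -0.49 to 0.0676 for Nr1h4, -0.36 to 0.75 for Klb and -0.52 to 0.0307 for Mafg. On log2(FPKM + 1) Slc27a5, Hsd17b4 and Abcd3 stood at 0.18, 0.0533 and 0.0217; without mitochondrially encoded genes Cyp27a1 was at -0.0080; without control replicate 1 and crizotinib replicate 3 Baat was at -0.0326 and Klb at -0.26. The median of all genes moved by at most 0.0656. With 3 livers per group, intervals are wide. smallest count of a member, Cyp7a1 in crizotinib replicate 2, was 162.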

Other observations

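Within single libraries the balance between steps can be read as a ratio of FPKM, which does not depend on the scaling between libraries. The ratio of Cyp8b1 to Cyp7a1 was 2.03, 2.92 and 4.34 in control replicates 1, 2 and 3, and 6.64, 19.0 and 0.699 in crizotinib replicates 1, 2 and 3, so crizotinib replicate 3 was the only liver with more Cyp7a1 than Cyp8b1. The ratio of Cyp7a1 to Cyp7b1, the 7-alpha-hydroxylases of the classic and alternative routes, was 1.81, 1.11 and 0.104 in controls and 0.226, 0.134 and 3.96 in crizotinib livers, without separation of the groups. The ratio of Cyp7b1 to Cyp27a1 was 0.112, 0.367 and 1.52 in controls and 0.0445, 0.0466 and 0.117 in crizotinib livers, where crizotinib replicate 3 again came close to control replicate 1. The ratio of Acox2 to Amacr, successive peroxisomal steps, was 1.01, 1.07 and 0.747 in controls and 3.92, 2.24 and 0.999 in crizotinib livers. These ratios were chosen after the values were seen and were not tested.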
